A study of Homo sapiens with 5 samples.

Results

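Genes whose products prepare and start DNA replication were examined: ORC5, ORC6, CDC6, MCM2, MCM10 and GINS1. They were chosen by name, as the rows of the deposited table of transcription start sites (TSSs) that carry these symbols, and each had 1 row, so 6 of 9767 analysed genes are described. RNA polymerase II (RNAPII) had been mapped by ChIP-seq of RPB1, its largest subunit, in RPE1 cells, an immortalised human retinal pigment epithelial line. By the labels, all 5 samples were untreated, and the parent line already carried inducible Cas9 (iCas9) and a double knockout of p53 and puro, the resistance gene for puromycin. Against this background there were 3 genotypes: WT (3 samples), CFAP20-KO (1 sample), which lacks CFAP20, a protein named for cilia and flagella, and CFAP20/CCNC-dKO (1 sample), which also lacks cyclin C, a subunit of the Mediator kinase module. Whether each knockout line was 1 clone is not given in the sources used here. The signal around TSSs came from replicate 1 of each genotype, so a difference between genotypes has no replicate check and no p-value is given. The labels name one RPB1 antibody for WT and another for both knockouts, so in each comparison with WT the antibody cannot be told apart from the genotype. For WT, the labels give RPB1 and spike-in antibodies a single catalogue number, which leaves the identity of the former in doubt.

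Replication starts in separate steps. In G1, the origin recognition complex, of which ORC5 and ORC6 are subunits, and CDC6 load the MCM helicase, of which MCM2 is a subunit, onto DNA as an inactive ring; this is called licensing. In S phase, CDC45 and the GINS complex, of which GINS1 is a subunit, join the ring, and MCM10 helps the assembled helicase to start unwinding; this is called firing. Many of these genes are transcribed in a cell cycle-dependent way and are textbook targets of E2F transcription factors.

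The RefSeq promoters (GRCh38.p14, 250 bases before to 50 bases after the RefSeq start) of all 6 genes were found. The 4 below are shown because GINS1 and MCM10 had the promoter densities that differed most between libraries, and CDC6 and MCM2 because they carry E2F words near the start and differed less. Capitals mark E2F words and CCAAT boxes, on either strand. MCM10 is from chr10:13161308-13161607, GINS1 from chr20:25407423-25407722, CDC6 from chr17:40287629-40287928 and MCM2 from chr3:127598161-127598460, all on the plus strand.
MCM10: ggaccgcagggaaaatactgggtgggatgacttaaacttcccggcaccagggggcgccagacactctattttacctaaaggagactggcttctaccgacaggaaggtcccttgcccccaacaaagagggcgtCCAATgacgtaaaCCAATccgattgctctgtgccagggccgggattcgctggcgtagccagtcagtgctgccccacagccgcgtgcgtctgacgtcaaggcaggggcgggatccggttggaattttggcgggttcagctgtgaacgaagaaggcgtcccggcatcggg
GINS1: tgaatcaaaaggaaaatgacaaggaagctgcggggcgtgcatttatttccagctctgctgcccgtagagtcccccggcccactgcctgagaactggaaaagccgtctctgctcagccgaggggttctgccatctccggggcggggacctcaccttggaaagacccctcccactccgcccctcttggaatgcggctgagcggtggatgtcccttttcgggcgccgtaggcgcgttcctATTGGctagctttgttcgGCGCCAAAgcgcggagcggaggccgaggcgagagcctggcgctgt
CDC6: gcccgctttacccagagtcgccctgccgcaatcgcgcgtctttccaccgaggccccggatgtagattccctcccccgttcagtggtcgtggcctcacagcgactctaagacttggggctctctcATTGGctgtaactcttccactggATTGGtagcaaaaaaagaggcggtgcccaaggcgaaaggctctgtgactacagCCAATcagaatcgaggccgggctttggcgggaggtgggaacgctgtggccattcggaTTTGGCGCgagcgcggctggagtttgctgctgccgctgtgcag
MCM2: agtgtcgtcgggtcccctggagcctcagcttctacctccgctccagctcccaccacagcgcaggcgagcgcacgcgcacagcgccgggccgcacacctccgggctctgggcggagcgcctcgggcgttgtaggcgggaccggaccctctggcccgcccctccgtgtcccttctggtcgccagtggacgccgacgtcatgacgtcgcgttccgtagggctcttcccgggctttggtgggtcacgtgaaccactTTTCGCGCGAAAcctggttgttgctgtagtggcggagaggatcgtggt

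The E2F words searched were TTTCCCGC, TTTCGCGC, TTTGCCGC and TTTGGCGC, on both strands. They occurred in 3 of the 6 promoters, those of CDC6, MCM2 and GINS1, against 4.11% of the promoters of 5007 listed genes and 3.31% of 35116 RefSeq promoters of this length. In CDC6 the word TTTGGCGC began 7 bases after the RefSeq start and in GINS1 its reverse complement GCGCCAAA began 5 bases after it. In MCM2, TTTCGCGC and its reverse complement GCGCGAAA overlapped at 2 and 6 bases after the start. A wider set, in which the last base may also be G, was searched only after these sequences had been read: it holds TTTGGCGG, found in MCM10 at 5 bases after the start and in CDC6 at 28 bases before it, and so counts 4 of 6 members, against 7.37% of listed and 6.19% of all promoters. MCM10 enters by this wider set alone, and its word is therefore left in lower case. CCAAT, on either strand, occurred in 4 of 6 members (ORC6, CDC6, MCM10 and GINS1) against 37.5% of listed promoters, and the GC box GGGCGG in 3 of 6 (MCM2, MCM10 and GINS1) against 51.9%. The cell cycle homology word TTTGAA occurred in 0 of 6 against 14.0%. No motif had been chosen before the promoters were read, and a match of letters is a description only.

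In WT, RNAPII density was at least 3.52 times higher at the promoter than in the gene body at 5 of the 6 genes, and 1.42 times at MCM10. Density is the deposited spike-in normalized coverage per base, averaged from -200 to 500 bp of the listed TSS (promoter) or from 2000 to 5000 bp (gene body). Promoter density was 2.58 at CDC6, 2.16 at ORC5, 1.85 at MCM2, 1.58 at GINS1, 1.42 at ORC6 and 0.444 at MCM10, where the median of all TSSs was 0.407 in the same library. Gene body density spanned a narrower range, from 0.313 at MCM10 to 0.509 at CDC6. MCM10 was thus the lowest member on both measures and CDC6 the highest. The ratio of promoter to gene body density was 5.59 at ORC5, 5.06 at CDC6, 4.51 at MCM2, 4.20 at ORC6, 3.52 at GINS1 and 1.42 at MCM10, beside a median of 2.52 over TSSs above the density filter. In the authors' deposited table, the WT BrU-seq value, a measure of nascent transcription in the gene body, was 15.1 for CDC6, 14.5 for MCM2 and 13.2 for ORC6, but 1.99 for GINS1, 0.961 for MCM10 and 0.897 for ORC5. ORC5 therefore stood second of 6 by promoter density and last by the BrU-seq value.

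**Figure D1:**
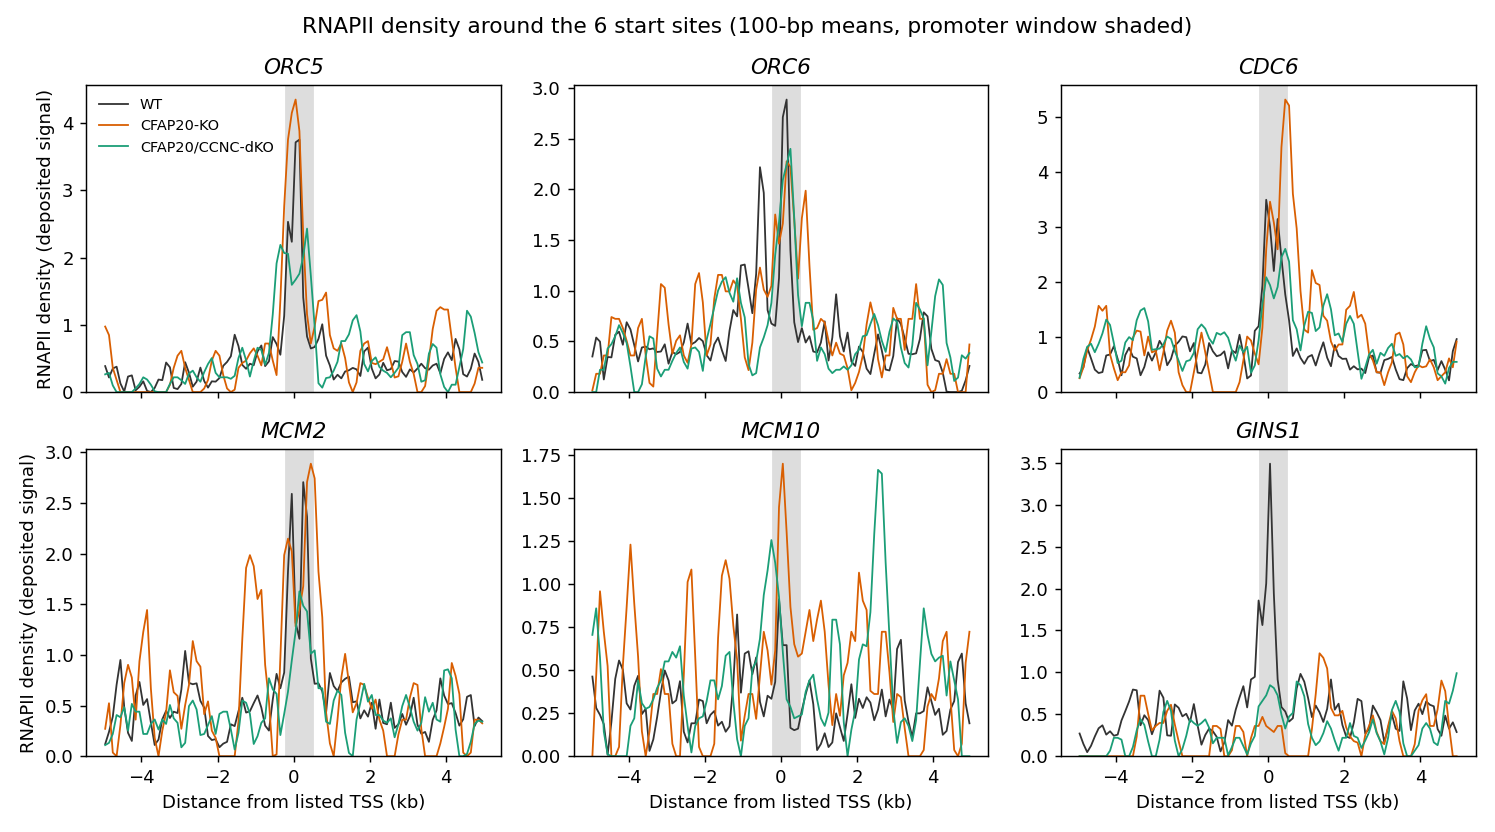
RNAPII density (deposited signal, y axis, scaled per gene) in 100-bp means against the distance from the listed TSS in kb (x axis) for 6 genes, 1 library per genotype (WT black, CFAP20-KO orange, CFAP20/CCNC-dKO green), with the promoter window shaded. The WT peak at GINS1 has no counterpart of its height in either knockout library, and at CDC6 the signal of both knockouts lies further downstream than that of WT.

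Depth limits what the knockout libraries can show. Over all TSS windows they held 12.0% (CFAP20-KO) and 16.8% (CFAP20/CCNC-dKO) of the 7006814 equivalent fragments of WT. A member promoter held 49.9 to 289.7 equivalent fragments in WT, 4.07 to 41.9 in CFAP20-KO and 10.6 to 40.7 in CFAP20/CCNC-dKO. The median fragment length was inferred from isolated stretches of coverage 1 step high, and was not measured on the fragments themselves. It was 140 bp in WT (206 stretches), 300 bp in CFAP20-KO (2805) and 320 bp in CFAP20/CCNC-dKO (1283). This inferred length thus moved with the genotype, and its part in the results was not tested. Ratios below carry 95% Clopper-Pearson intervals that cover counting error only. A gene is called higher or lower when its log2 ratio departs from the median of all genes tested by at least 1.5-fold. In a bulk population, fewer cells with RNAPII at a gene and less RNAPII per cell cannot be told apart. Of 12 retinal pigment epithelial and epithelial markers 5 were measured. Among them the promoter density of OTX2, a pigment epithelium transcription factor, was 1.68 (WT), 1.81 (CFAP20-KO) and 1.01 (CFAP20/CCNC-dKO). MITF was at 0.540, 0.751 and 0.523, while RPE65, RLBP1 and LRAT were at 0.108 to 0.484 in the 3 libraries. The sum of the 5 was 3.37 (WT), 3.33 (CFAP20-KO) and 2.77 (CFAP20/CCNC-dKO). Summed promoter density of fibroblast markers (4 of 6 measured) was 1.80 (WT), 2.15 (CFAP20-KO) and 2.85 (CFAP20/CCNC-dKO), that of neuron markers (2 of 6) 1.37, 0.413 and 0.538, and that of blood markers (3 of 6) 0.884, 0.449 and 1.00. The fibroblast sum was thus higher and the neuron sum lower in both knockouts than in WT, but single genes did not all follow their sum. The neuron difference lay mostly in SNAP25, at 1.05 (WT), 0.150 (CFAP20-KO) and 0.121 (CFAP20/CCNC-dKO). STMN2 was at 0.318, 0.263 and 0.417. Of the fibroblast markers, COL1A1 and DCN were higher in both knockouts. COL1A2 was at 0.338, 0.271 and 0.745, and LUM at 0.309, 0.310 and 0.288. CD3E, a T cell gene, was at 0 in CFAP20-KO. The part of these markers in the results was not tested.

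The first comparison asks what loss of CFAP20 does to RNAPII at these genes. In CFAP20-KO, GINS1 had a far lower and MCM10 a higher promoter density than in WT, and the licensing genes ORC5, ORC6, CDC6 and MCM2 had ratios whose intervals include 1. Of the 6 members, 1 was called higher, where 15.8% of 4892 genes were, and 1 lower, where 16.6% were. Without centring on the median ratio these shares were 22.3% and 12.4%. The median log2 ratio of the members was 0.31, beside 0.13 over all genes tested.

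Among the licensing genes, ORC5 had promoter densities of 2.16 (WT) and 2.91 (CFAP20-KO), a ratio of 1.35 (0.928 to 1.90). ORC6 had 1.42 and 1.74, a ratio of 1.22 (0.751 to 1.91). CDC6 had 2.58 and 3.24, a ratio of 1.26 (0.889 to 1.75). MCM2, which shares its start region with TPRA1 on the other strand, had 1.85 and 2.02, a ratio of 1.10 (0.7004 to 1.65). All 4 point estimates were above 1, and none differed from WT beyond counting error.

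At the MCM10 promoter WT had a density of 0.444 (49.9 equivalent fragments) and CFAP20-KO 1.02 (13.2), a ratio of 2.30 (1.15 to 4.29). At the GINS1 promoter WT had 1.58 (178.3 equivalent fragments) and CFAP20-KO 0.315 (4.07), a ratio of 0.199 (0.0543 to 0.514). The same direction held just upstream of GINS1, from -1000 to -200 bp, where density was 0.845 (WT) and 0.253 (CFAP20-KO), a ratio of 0.299 (0.0754 to 0.812). The promoter to gene body ratio of GINS1 was 0.985 in CFAP20-KO, against 3.52 in WT.

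Gene bodies differed less. In CFAP20-KO the gene body ratio to WT was 1.38 (0.958 to 1.94) at CDC6, 1.22 (0.737 to 1.93) at MCM10, 1.21 (0.743 to 1.88) at ORC6, 1.18 (0.747 to 1.80) at ORC5, 0.748 (0.427 to 1.23) at MCM2 and 0.711 (0.411 to 1.15) at GINS1. All 6 intervals include 1, and 0 of 6 members were called, where 7.3% of 4396 genes of at least 5000 bp were called higher and 12.8% lower (10.6% and 10.7% without centring).

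**Figure D2:**
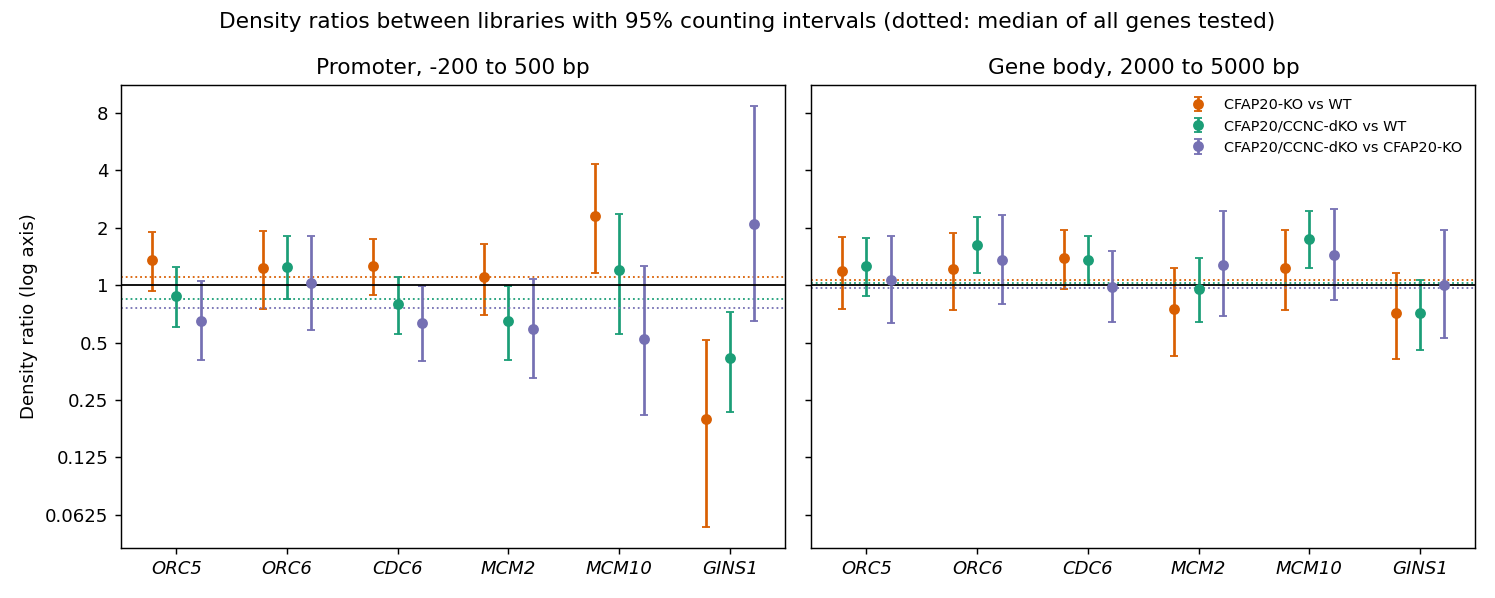
Ratios of promoter (left) and gene body (right) density between libraries on a log axis for each of 6 genes; points are ratios, bars are 95% counting intervals, and dotted lines mark the median ratio of all genes tested. GINS1 has the lowest promoter ratios to WT, 0.199 (CFAP20-KO) and 0.415 (CFAP20/CCNC-dKO), and most other intervals include 1.

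The second comparison sets the double knockout against WT. In CFAP20/CCNC-dKO, GINS1 and MCM2 had lower promoter density than in WT, while ORC6 and MCM10 had higher gene body density. By promoter, 0 of 6 members were called higher, where 18.8% of 4892 genes were, and 1 lower (GINS1), where 16.7% were (11.4% and 28.0% without centring). The median promoter log2 ratio of the members was -0.26, beside -0.24 over all genes.

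At the GINS1 promoter WT had 1.58 and CFAP20/CCNC-dKO 0.657 (13.1 equivalent fragments), a ratio of 0.415 (0.217 to 0.726), and upstream of it density was 0.845 and 0.210, a ratio of 0.249 (0.0768 to 0.610). MCM2 had 1.85 and 1.20, a ratio of 0.647 (0.405 to 0.992), which was not past 1.5-fold once centred. The other promoter ratios were 1.25 (0.842 to 1.81) at ORC6, 1.20 (0.553 to 2.35) at MCM10, 0.877 (0.605 to 1.24) at ORC5 and 0.794 (0.557 to 1.105) at CDC6. GINS1 was thus low in both knockout libraries, which are compared with the same WT library.

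In gene bodies, 2 of 6 members were called higher, where 5.03% of 4396 genes were, and 0 lower, where 9.9% were. ORC6 gene body density was 0.338 in WT and 0.551 in CFAP20/CCNC-dKO, a ratio of 1.63 (1.15 to 2.27). With the pseudocount its log2 ratio was 0.64, and 0.31 over 1000 to 5000 bp, where it was not called and GINS1, at -0.61, was called lower. MCM10 had 0.313 and 0.547, a ratio of 1.75 (1.23 to 2.44). Within the MCM10 window, the highest density downstream of the promoter was 1.70 at 2600 bp in CFAP20/CCNC-dKO. It was 0.747 at 3100 bp in WT and 1.10 at 2020 bp in CFAP20-KO. GENCODE 44 places a further MCM10 transcript start at 2549 bp, and its part in these densities was not tested. Gene body ratios were 1.35 (1.00 to 1.81) at CDC6, 1.25 (0.872 to 1.76) at ORC5, 0.9498 (0.637 to 1.38) at MCM2 and 0.711 (0.459 to 1.06) at GINS1. The promoter to gene body log2 ratio was lower than in WT at 6 of 6 members, with a median of -0.52 beside -0.28 over all genes, and was also lower at 66.9% of 4396 genes. It was lower at 5 of 6 members with the promoter taken from -500 to 500 bp or the gene body from 1000 to 5000 bp.

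Position within the window differed as well. At CDC6, density from 500 to 2000 bp was 0.702 (WT), 1.88 (CFAP20-KO) and 1.32 (CFAP20/CCNC-dKO). The highest point lay at -20 bp in WT and at 480 bp in both knockouts. WT density was near level there, at 2.72, 2.61 and 2.46 from -200 to 0, 0 to 200 and 200 to 500 bp, so its highest point marks a position poorly. At MCM2 the highest point lay at 290, 490 and 150 bp in the 3 libraries, and at MCM10 at -60, 60 and -220 bp. The part of the inferred fragment length in these positions was not tested. The canonical CDC6 start in GENCODE 44 is 246 bp downstream of the listed TSS. At ORC6, density from -1000 to -200 bp was 1.24 (WT), 0.785 (CFAP20-KO) and 0.486 (CFAP20/CCNC-dKO), the last a ratio of 0.393 (0.192 to 0.721). That window holds the start of VPS35, a retromer subunit gene whose canonical transcript begins 468 bp upstream on the other strand. At ORC5 the same window had 0.671 (WT), 0.905 (CFAP20-KO) and 1.20 (CFAP20/CCNC-dKO), the last a ratio of 1.79 (1.12 to 2.78).

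The third comparison asks what added loss of CCNC does in CFAP20-KO cells, with the same antibody label in both libraries. At the CDC6 promoter CFAP20/CCNC-dKO had the lower density, 2.05 against 3.24, a ratio of 0.630 (0.399 to 0.994). The ratio was 0.652 (0.403 to 1.05) at ORC5, 0.591 (0.324 to 1.07) at MCM2, 0.520 (0.209 to 1.26) at MCM10 and 1.02 (0.585 to 1.82) at ORC6. The ratio at GINS1 was 2.09 (0.650 to 8.67). The median log2 ratio of the members was -0.63, beside -0.40 over all genes. Relative to that median, 1 of 6 members, GINS1, was called higher, where 20.8% of 4892 genes were, and 0 lower, where 17.7% were (10.7% and 38.5% without centring). In gene bodies 0 of 6 were called, where 13.2% of genes were higher and 11.8% lower, with ratios from 0.980 (0.643 to 1.51) at CDC6 to 1.43 (0.838 to 2.51) at MCM10.

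MCM10 and GINS1 lie in segments whose background density differs between the libraries. Flank density was taken 2000 to 4500 bp on both sides of a TSS and divided by the library's median. Its downstream side lies inside the gene body window of 2000 to 5000 bp. At MCM10 on chromosome 10 flank density was 0.841 (WT), 1.08 (CFAP20-KO) and 1.23 (CFAP20/CCNC-dKO). Before division, its upstream side had 0.307, 0.386 and 0.279, and its downstream side 0.297, 0.404 and 0.625. The MCM10 flank of CFAP20/CCNC-dKO was thus above WT on the gene body side only. The median of the 16 other TSSs within 2 Mb was 0.721, 1.20 and 1.13, so the neighbourhood was low in WT and not in the knockouts. At GINS1 on chromosome 20 the flank was 1.29 (WT), 0.704 (CFAP20-KO) and 0.612 (CFAP20/CCNC-dKO), and the median of the 20 other TSSs within 2 Mb was 0.850, 0.577 and 0.507. All 16 of those before GINS1 had a lower flank in both knockouts than in WT, and so did the 37 TSSs 2 to 15 Mb before it. From 2 to 15 Mb after GINS1, past the gap in listed TSSs, 22 of 59 were lower in CFAP20-KO and 26 of 59 in CFAP20/CCNC-dKO.

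Divided by this regional flank, the MCM10 ratios had intervals that include 1. The MCM10 promoter ratio to WT was 1.36 (0.679 to 2.52) in CFAP20-KO, and its gene body ratio in CFAP20/CCNC-dKO was 1.09 (0.767 to 1.52). The GINS1 promoter ratio stayed low in CFAP20-KO, at 0.287 (0.0783 to 0.741), while in CFAP20/CCNC-dKO it was 0.681 (0.356 to 1.19), an interval that includes 1. GINS1 gene body ratios were 1.03 (0.594 to 1.67) and 1.17 (0.754 to 1.74). The promoter of ABHD12, 16750 bp before GINS1, had density 2.67 (WT), 1.65 (CFAP20-KO) and 0.808 (CFAP20/CCNC-dKO). For ORC6, CDC6 and MCM2 the regional flank of the knockouts was 0.952 to 1.26 times that of WT. The 2 Mb around ORC5 straddle the edge of a segment: its own flank was 0.775, 0.890 and 0.781, while 5 of 5 TSSs after it, the nearest 1090732 bp away, were lower in both knockouts, so values divided by the regional flank do not describe that gene alone.

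**Figure D3:**
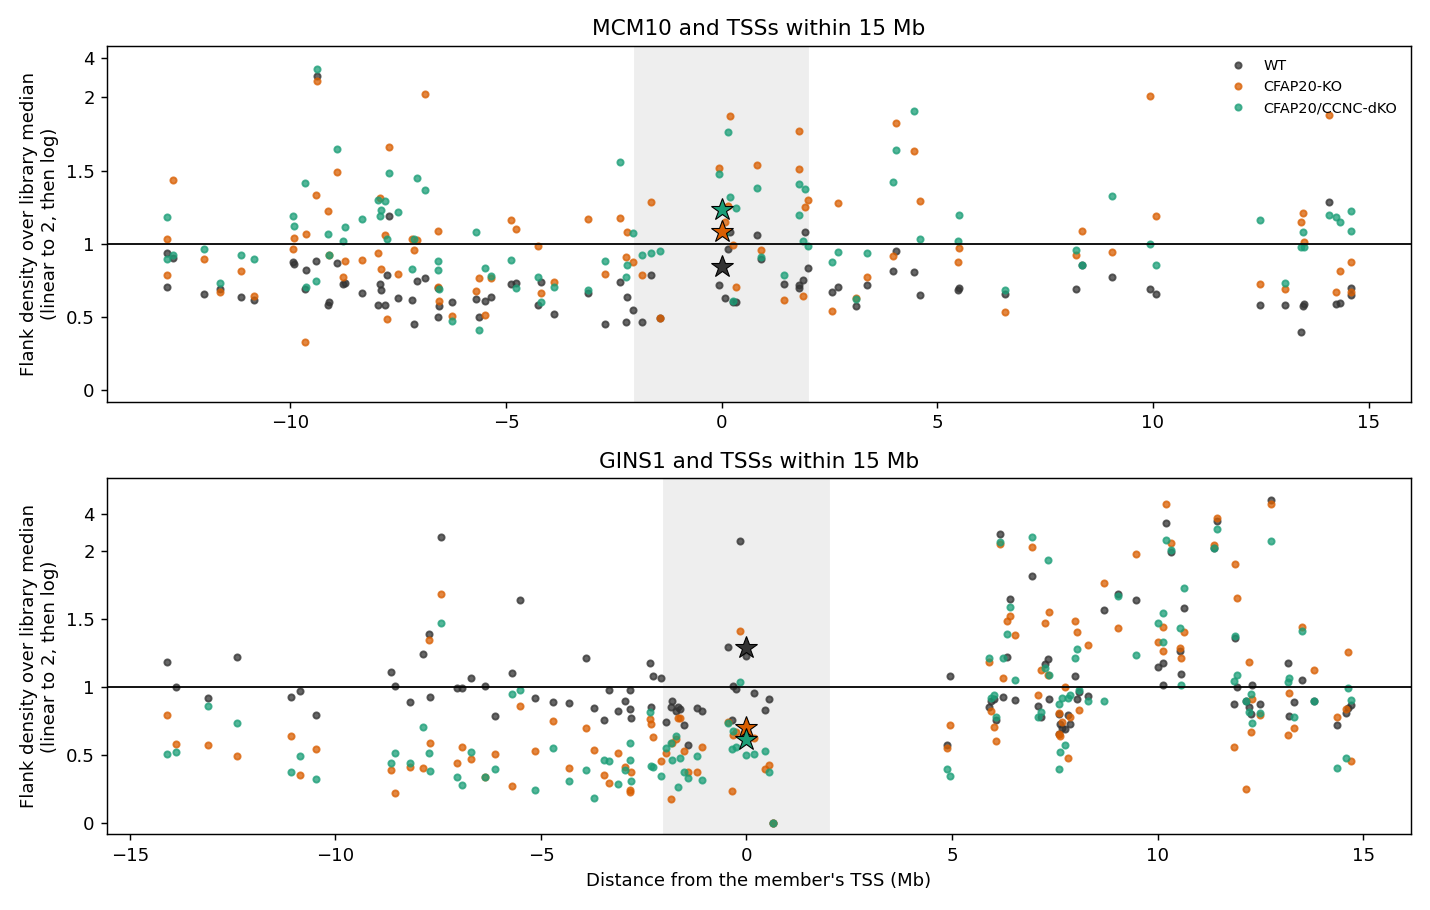
Flank density over the library median (y axis, linear to 2 and log above) for TSSs within 15 Mb of MCM10 (top) and GINS1 (bottom) against distance in Mb (x axis); circles are other TSSs, stars the named gene, colours the 3 libraries, and the shading marks 2 Mb on each side. Around MCM10 the WT circles lie mostly below those of the knockouts, and before GINS1 both knockouts lie below WT.

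The 3 WT samples allow a replicate check on the shape of 5 of the promoters, in a second deposited signal of 200-bp bins across windows of 100 kb on either side of replication origins. Promoter over flank density, a ratio within each library, was 2.99, 3.56 and 3.80 at GINS1 in WT replicates 1, 2 and 3, or 3.45 ± 0.415 (SD, n = 3). In matching bins it was 1.06 (CFAP20-KO) and 2.703 (CFAP20/CCNC-dKO), both below all 3 WT values. With wider promoter bins, from -500 to 500 bp, the knockouts had 1.05 and 2.37, both below the WT range of 2.82 to 3.32. WT replicate 1, 1 of these 3, was read again from the TSS signal and gave 2.97 (2.78 with the wider promoter bins), also just below the 3. This is a second reading of 1 library and adds nothing to the spread of WT. In both settings the CFAP20/CCNC-dKO value lay nearer to this reading than the CFAP20-KO value did. At MCM10 it was 1.66, 2.34 and 0.994 in WT (1.66 ± 0.672, SD, n = 3), 2.33 (CFAP20-KO) and 1.30 (CFAP20/CCNC-dKO), both inside the WT range. The higher MCM10 promoter ratio of CFAP20-KO was thus not larger than the spread of WT replicates on this measure.

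MCM2 had 3.82, 3.89 and 5.73 in WT (4.48 ± 1.08, SD, n = 3), with 4.37 in CFAP20-KO inside that range and 3.00 in CFAP20/CCNC-dKO below it. CDC6 had 3.66, 1.55 and 4.04 in WT (3.08 ± 1.34, SD, n = 3), with 4.26 in CFAP20-KO above it and 2.27 in CFAP20/CCNC-dKO inside it. ORC6 had 2.74, 1.77 and 2.53 in WT (2.35 ± 0.510, SD, n = 3), with 3.13 and 3.11 in the knockouts, both above all 3. WT replicate 1 read again from the TSS signal gave 2.75, beside 2.74 from the origin windows. With promoter bins from -500 to 500 bp the knockouts, at 2.92 and 2.79, lay inside the WT range of 1.72 to 2.94. The median over these 5 genes was 2.99, 2.34 and 3.80 in the 3 WT replicates, 3.04 ± 0.731 (SD, n = 3), and over 1180 TSSs it was 2.90, 2.17 and 3.33. Replicate 2 was lowest on both. With 1 library in each knockout group, no test over samples was run.

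**Figure D4:**
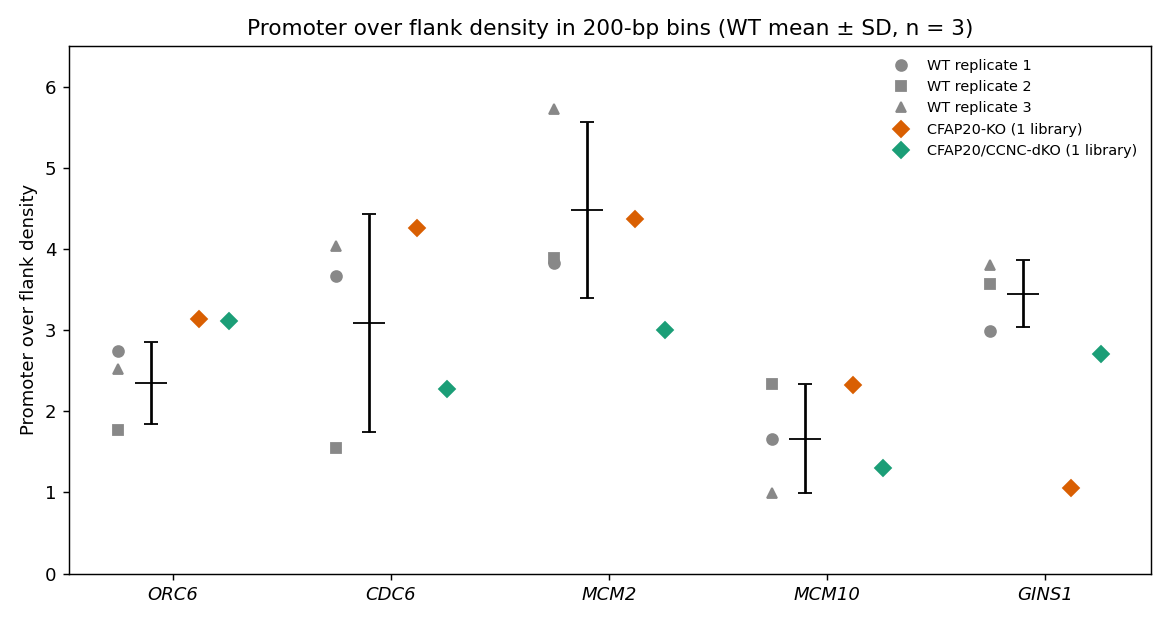
Promoter over flank density (y axis, ratio within a library) of 5 genes; grey marks are the 3 WT replicates, black bars their mean ± SD, and coloured diamonds the single knockout libraries in matching 200-bp bins. At GINS1 the CFAP20-KO value of 1.06 lies below the WT range of 2.99 to 3.80, and at MCM10 both knockouts lie inside the WT range.

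Origin centres, mapped by sequencing of Okazaki fragments (OK-seq) and listed by the authors, lie near these genes. Along the direction of transcription, the origin centre lay 4225 bp upstream of the GINS1 start, 11577 bp upstream of MCM10 and 75631 bp upstream of CDC6, and 101046 bp downstream of the ORC5 start, which puts the ORC5 promoter just outside its window. For MCM2 (1760 bp upstream) and ORC6 (21380 bp downstream) the centre was placed here by matching WT coverage between both signals (r = 0.974 and 0.987 over 46 bins). Each r was the highest of all placements tried, so a high value was favoured by the search. The next best placements had r = 0.897 and 0.806. The WT density within 5 kb of the centre, over the window's median, was 1.45 ± 0.245 at MCM2, 1.24 ± 0.122 at MCM10, 1.10 ± 0.123 at GINS1, 0.938 ± 0.0731 at ORC6 and 0.710 ± 0.0211 at CDC6 (SD, n = 3 each). At MCM2 and GINS1 these 5 kb hold the promoter of the gene itself, and at MCM10, ORC6 and CDC6 they do not. The values therefore do not compare the origins alone.

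Other genes of the cell cycle were taken from lists of licensing, firing, fork, nucleotide supply, E2F and RB, and G2 and mitosis genes, of which 32 besides the members were measured. In CFAP20-KO against WT, 1 of 32 promoters was called higher and 6 lower, beside 15.8% and 16.6% of all genes. GMNN, the geminin gene, an inhibitor of licensing, had 1.10 (WT) and 0.444 (CFAP20-KO), a ratio of 0.403 (0.141 to 0.916). RIF1, a regulator of origin timing, had 1.81 and 0.771, a ratio of 0.426 (0.201 to 0.800), and POLD3, a polymerase delta subunit, 0.498 (0.207 to 1.02). At the other end, E2F2, an E2F activator, had a ratio of 1.72 (1.01 to 2.80), MKI67, which encodes the proliferation marker Ki-67, 1.49 (1.01 to 2.15) and MCM3, a helicase subunit, 1.40 (0.845 to 2.22). GINS1 had a lower ratio than any of these, at 0.199, but its interval (0.0543 to 0.514) overlaps those of GMNN, RIF1 and POLD3. It rests on 4.07 equivalent fragments in CFAP20-KO, and was 0.287 after division by the regional flank.

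In CFAP20/CCNC-dKO against WT, 1 of 32 was called higher, E2F2 at 1.61 (1.03 to 2.46), and 1 lower, TPX2, a spindle assembly factor, at 0.492 (0.266 to 0.844), beside 18.8% and 16.7% of all genes. GMNN had 0.556 (0.281 to 1.00), CCNB1, which encodes cyclin B1, 0.574 (0.291 to 1.03), E2F7 1.13 (0.826 to 1.52) and E2F6 1.09 (0.737 to 1.58). In CFAP20/CCNC-dKO against CFAP20-KO, 5 of 32 were called higher and 2 lower, beside 20.8% and 17.7% of all genes. The lowest were MCM3 at 0.484 (0.237 to 0.968), MKI67 at 0.497 (0.288 to 0.850) and CCND1, which encodes cyclin D1, at 0.534 (0.390 to 0.731). The highest were RIF1 at 1.77 (0.832 to 4.11), POLD3 at 1.60 (0.664 to 4.30) and CENPF, a kinetochore protein gene, at 1.45 (0.639 to 3.57).

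By distance in log2 promoter and gene body density over the 3 libraries, the nearest of 37 genes was CMPK1 for ORC5 (0.60), DUT for ORC6 (0.77) and MCM2 (0.66), and DCTD for CDC6 (0.74). CMPK1, DUT and DCTD encode enzymes of pyrimidine nucleotide metabolism. The second nearest came from the licensing, firing, and E2F and RB lists and were not much further away. They were CDC7 for ORC5 (0.72) and MCM2 (0.73), E2F6 for ORC6 (0.85) and MCMBP for CDC6 (0.75). The distances thus do not single out nucleotide genes. MCM10 was nearest to CDC45 (1.08) and GINS1 to GMNN (1.15), the largest distances of the 6. No limit for a close match was set. MCM10 and GINS1 also had the fewest equivalent fragments of the 6 promoters in both knockouts, and the part of this in their distances was not tested.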

How the data were processed

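RPB1 ChIP-seq was available for 5 samples in 3 groups, grouped by title. The authors deposited coverage signal in bins: 10-bp bins 5 kb either side of TSSs for replicate 1 of each genotype, spike-in normalized per the file names, and 200-bp bins 100 kb either side of origins for 3 WT replicates, with a normalization not given in the sources used here; it was used for ratios within a library only. Per the labels' protocols, Drosophila spike-in chromatin was 40 ng per 28 µg, and 32.6 ng per 22 µg in CFAP20/CCNC-dKO. The submitters' processing notes name BWA 0.7.17, SAMtools 1.11 and HOMER 4.8.2, among others, with builds GRCh38/hg38 and BDGP6. The deposited BrU-seq score has no stated scale and no error. No use was made of 2 more columns of per-sample values.

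Deposited signal values were whole multiples of 1 step per library (tolerance 0.02), and dividing by step and median fragment length gave equivalent fragments. Of 9944 listed TSSs, 9787 were analysed. A pseudocount of 0.0424, which is 10% of the median density at promoters, was added before log2 ratios were taken. Genes with mean promoter density of at least 0.411, the median, were tested, 1 TSS per gene; all 6 members passed, GINS1 in 2 of 3 libraries and the others in 3. Counting intervals and calls were tested on simulated data. Python 3.11.15, numpy 2.4.6, pandas 2.3.3 and scipy 1.17.1 were used; annotation was GENCODE 44.

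The members and gene lists were chosen with earlier results of these data known. The named genes were the 6 members, the 3 highest and 3 lowest promoter ratios among the other list genes in each comparison, and the list gene nearest to each member. The upstream window, the positions of maxima, the origin placement by coverage, the rebinning to 200 bp, the rule that a TSS at the density limit is kept, the use of the median fragment length and all motif words were chosen after seeing the data. Whether samples came from separate cultures is not given in the sources used here; the SD over WT samples may be technical.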

Additional observations from a re-analysis of the deposited data

How the results depend on the processing

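The alternatives were other promoter and gene body windows, a pseudocount of 1%, 2 flank scalings, no centring, no density filter, and leaving out MCM10 and GINS1 or a WT replicate. All 60 alternative values of the members' medians moved by less than a set margin, but some settings could not move a median. The gene body window, for example, does not enter a promoter median. The error was also near the size of some medians: it was 0.255 for the promoter median of 0.307 in CFAP20-KO against WT. After regional division that median was 0.0863, beside 0.0796 over all genes. Of 30 alternative counts of called members, 21 kept the same number in each direction. Promoter calls in CFAP20/CCNC-dKO against WT, 0 higher and 1 lower (GINS1), numbered 2 without centring (0 higher, 2 lower, MCM2 added), 2 with the window of -500 to 500 bp (1 higher, 1 lower, MCM10 added) and 2 after regional division (2 higher, ORC5 and ORC6, and 0 lower, GINS1 lost). In CFAP20/CCNC-dKO against CFAP20-KO they numbered 5 instead of 1 without centring (1 higher, 4 lower), 2 after regional division (2 higher, ORC6 added) and 2 without the density filter (1 higher, 1 lower, MCM10 added). After regional division 2 were called in CFAP20-KO against WT as before, but ORC5 entered and MCM10 was lost. Gene body calls after regional division numbered 1 instead of 0 in CFAP20-KO against WT (ORC5) and 1 instead of 0 in CFAP20/CCNC-dKO against CFAP20-KO (ORC6); in CFAP20/CCNC-dKO against WT, ORC5 replaced MCM10. With the gene body from 1000 to 5000 bp, ORC6 lost its call there and GINS1 was called lower. The ORC5 region straddles a segment edge, so its regional values are not its own alone. The cause was not tested. The WT promoter over flank median of 3.04 ranged from 2.66 to 3.39 when 1 replicate was left out, and was 3.04 without the members placed by coverage, an alternative chosen after seeing the data. Of 180 single-gene values, 4 left their counting interval, all after regional division: log2 0.99 and 0.31 for the ORC5 promoter in CFAP20-KO and CFAP20/CCNC-dKO against WT, and 0.11 and 0.21 for the gene bodies of MCM10 and GINS1 in CFAP20/CCNC-dKO against WT. No paired analysis was possible because each knockout has 1 sample. Depth limits the knockouts: 4.07 equivalent fragments stood behind the GINS1 promoter in CFAP20-KO.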
